A study of Macaca mulatta with 2 samples.

Results

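AMPA and kainate receptors are the glutamate-gated ion channels that carry most fast excitatory current in the cortex. The genes examined were the 4 AMPA subunit genes GRIA1, GRIA2, GRIA3 and GRIA4 and the kainate subunit genes GRIK1 to GRIK5, chosen by symbol from a table of 33618 genes. Of the 9 symbols, 8 were listed in the table and GRIK5 was not. The identifier LOC706629 carries the NCBI gene number that the RefSeq table of macaque assembly MMU8v2.0 pairs with GRIK5, so its values are given under that identifier and kept out of the counts and shares unless stated.

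The tissue was prefrontal cortex of infant rhesus macaques, both labelled as 28 days old. The control group was represented by 1 library (PFC CON 1) and the sevoflurane group by 1 library (PFC SEV 1). Per the labels, sevoflurane, an inhaled anesthetic, was given at 2.5% to 3% for 4 h at about postnatal days 7, 14 and 28, while the study's methods give later days for the last exposures and place the dissection directly after the last one. How the control animal was handled is not given in the sources used here. With no replicates, every difference is one between 2 libraries and not between conditions, and no p-value is given.

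Each AMPA or kainate receptor is a tetramer. GRIA1 to GRIA4 encode the AMPA subunits GluA1 to GluA4, and RNA editing of GRIA2 makes AMPA receptors that contain GluA2 nearly impermeable to calcium. GRIK1 to GRIK3 encode the kainate subunits that form channels on their own, whereas GRIK4 and GRIK5 encode the high-affinity subunits that need one of them as a partner. Kainate receptors sit on both sides of the synapse and modulate release as well as carrying slow current.

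The control library held 16960880 reads and the sevoflurane library 9839105, a depth ratio of 1.72. Values are CPM, read counts relative to a library size scaled by edgeR's TMM method, and the log2 ratio of the sevoflurane over the control library was computed with 2 prior reads. A gene was tested when it had at least 1 CPM in either library, and all 8 listed subunit genes and LOC706629 were among the 18050 tested. Each ratio has a 95% interval from exact Clopper-Pearson limits, which cover counting error only and not variation between animals. The middle 50% of tested genes had log2 ratios from -0.34 to 0.37, with a median of -0.0048. On 7 Y-linked genes there were 3 reads in the control against 4308 in the sevoflurane library. Sex as read from these genes, animal and exposure cannot be told apart here.

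The AMPA genes were lower or nearly level in the sevoflurane library, and the kainate genes split by type. The partner-independent genes GRIK1, GRIK2 and GRIK3 were lower, and the high-affinity gene GRIK4 was about 2-fold higher. None of the 8 genes reached a log2 ratio of 1 in size with an interval excluding equal expression, a limit passed by 7.56% of all tested genes upwards and 5.47% downwards. At 1.5-fold, 2 genes were lower (GRIA3 and GRIK3) and 1 was higher (GRIK4), against 11.9% and 14.4% of tested genes. The interval lay below equal expression for 6 of the 8 genes and above it for 1, and the same held for 28.1% and 28.4% of tested genes. Most of the 8 genes were among the more covered ones, whose counting intervals are narrow. The shares over all tested genes, here and below, are not matched for coverage. The median log2 ratio over the 8 genes was -0.27.

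**Figure D1:**
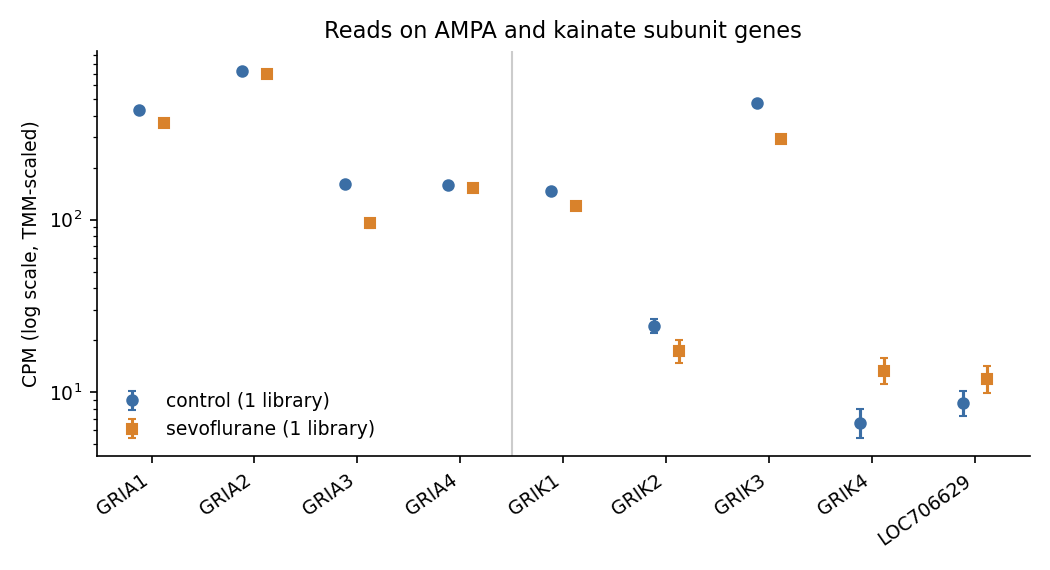
CPM (log scale) of each subunit gene in the control (circles) and sevoflurane (squares) library, with exact 95% counting intervals; the vertical line separates AMPA from kainate genes. GRIA3 and GRIK3 sit lower and GRIK4 higher in the sevoflurane library, while the GRIA2 and GRIA4 points lie almost level.

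GRIA1 encodes GluA1, the subunit whose insertion into synapses is a main route of activity-dependent strengthening. It had 7244 reads in the control against 3622 in the sevoflurane library, or 431 and 365 CPM. Its log2 ratio was -0.24 (95% interval -0.30 to -0.18), a level of 84.6% of the control library. That ratio lay inside the middle 50% of tested genes.

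GRIA2 encodes GluA2, the subunit that sets calcium permeability. It had 12289 and 6939 reads, or 731 CPM in the control against 699 CPM in the sevoflurane library. The log2 ratio of -0.07 (interval -0.11 to -0.02) corresponded to 95.5% of the control level. Scaled by library totals alone, its interval reached from -0.08 to 0.0036 and included equal expression.

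GRIA3 encodes GluA3 and is X-linked. It had the lowest ratio of the AMPA genes, with 2686 reads (160 CPM) in the control against 944 reads (95.1 CPM) in the sevoflurane library. The log2 ratio was -0.75 (interval -0.86 to -0.64), or 59.5% of the control level, and 9.52% of tested genes had a lower ratio. Over the 590 tested X-linked genes the median log2 ratio was -0.09 (quartiles -0.43 and 0.26), against -0.0097 over 15115 autosomal genes, and 77 X-linked genes lay below GRIA3. The part of X linkage in the GRIA3 value was not tested.

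GRIA4 encodes GluA4, which is rich in fast-spiking interneurons. It had 2656 and 1506 reads, or 158 and 152 CPM. Its log2 ratio of -0.06 had an interval of -0.15 to 0.03, so a difference was not detectable at this depth.

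The balance among AMPA genes does not depend on how the libraries are scaled, because each gene is read against the others of the same library. Shares of reads reflect transcript length as well as level, and transcript lengths were not used here, so genes are compared only between libraries. GRIA2 held 49.4% of the 24875 AMPA reads in the control library (exact 95% interval 48.8% to 50.03%) and 53.3% of 13011 in the sevoflurane library (52.5% to 54.2%). That was a difference of 3.93 percentage points (Newcombe 95% interval 2.87 to 4.99). GRIA3 went from 10.8% to 7.26%, a difference of -3.54 points (-4.13 to -2.95). GRIA1 held 29.1% and 27.8%, a difference of -1.28 points (-2.24 to -0.33). GRIA4 held 10.7% and 11.6%, a difference of 0.90 points (0.23 to 1.57). GRIA2 and GRIA4 thus took larger shares, and GRIA1 and GRIA3 smaller ones. Shares add up to the whole family, so a smaller share of some genes makes those of others larger. A larger share is therefore not a higher level, and GRIA2 itself was at 95.5% of the control level.

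Set against each other in pairs, 5 of the 6 AMPA pairs had a ratio that differed between the libraries beyond counting error. The pairs share genes and restate the single-gene ratios, so they are not separate observations. How often pairs of other genes differ in this way was not computed. GRIA2 had 4.58 reads for each GRIA3 read in the control against 7.35 in the sevoflurane library, a difference of 0.68 on the log2 scale (95% interval of the odds ratio 0.57 to 0.80). GRIA3 and GRIA4 were at a ratio of 1.01 in the control against 0.627 in the sevoflurane library. The pair without a detectable difference was GRIA2 and GRIA4, with 4.63 and 4.61 GRIA2 reads for each GRIA4 read and an interval of -0.11 to 0.09. The reads of GRIA2 against the summed other AMPA genes went from 0.976 to 1.14, a difference of 0.23 on the log2 scale (0.17 to 0.29).

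**Figure D2:**
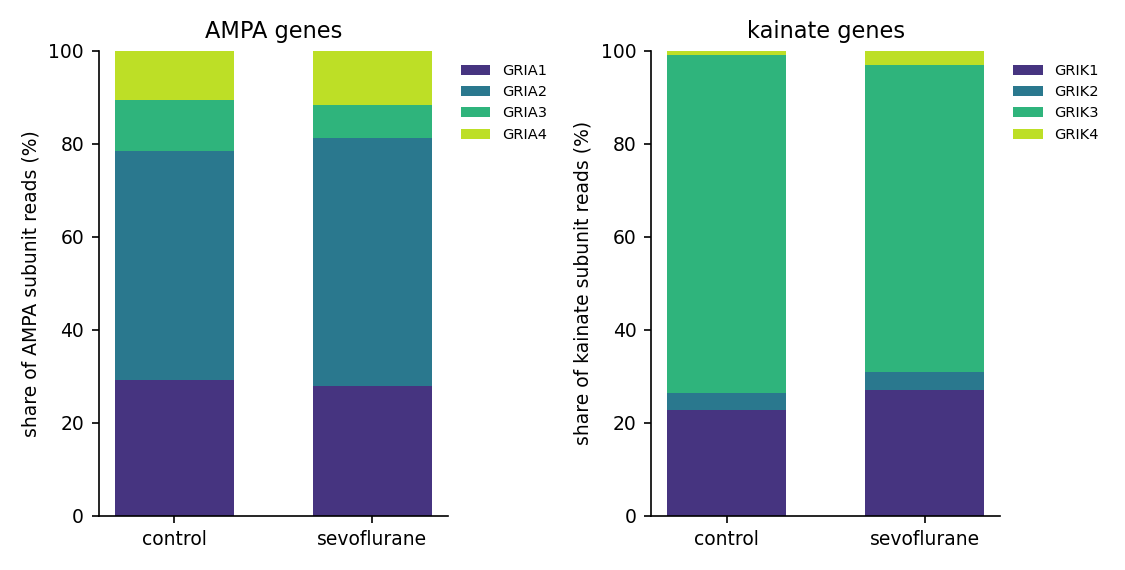
Stacked bars give the share (%) of AMPA reads (left) and kainate reads (right) on each subunit gene in the 1 control and 1 sevoflurane library. The GRIA3 segment narrows from 10.8% to 7.26%, and the GRIK3 segment from 72.6% to 66.0% while GRIK1 and GRIK4 widen.

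Among the kainate genes, GRIK3 had the lowest ratio. GRIK3 encodes GluK3, a subunit of low glutamate sensitivity found at presynaptic sites. It had 7941 reads (473 CPM) in the control against 2901 reads (292 CPM) in the sevoflurane library. The log2 ratio was -0.69 (interval -0.76 to -0.63), a level of 61.8% of the control, and 10.6% of tested genes had a lower ratio.

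GRIK1 encodes GluK1, a subunit prominent in cortical interneurons. It had 2477 and 1190 reads, or 147 and 120 CPM. The log2 ratio was -0.30 (interval -0.40 to -0.20), or 81.3% of the control level, inside the middle 50% of tested genes.

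GRIK2 encodes GluK2, a main partner of the high-affinity subunits. It was more thinly covered, with 407 and 172 reads, or 24.2 and 17.3 CPM. The log2 ratio was -0.48, and the interval from -0.75 to -0.22 overlapped those of GRIK1 and GRIK3. Its ratio to GRIK1 (interval of the difference -0.09 to 0.46 for GRIK1 over GRIK2) and to GRIK3 (-0.05 to 0.47 for GRIK2 over GRIK3) did not differ detectably between the libraries.

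GRIK4 encodes the high-affinity subunit GluK4. It ran against the other kainate genes listed by symbol, with 111 reads (6.61 CPM) in the control against 132 reads (13.3 CPM) in the sevoflurane library. The sevoflurane library thus held more GRIK4 reads although it was the shallower of the pair. The log2 ratio was 0.99 (interval 0.63 to 1.39), just inside the 2-fold limit, and 92.0% of tested genes had a lower ratio. It passed that limit with a prior count of 0.5 (1.00), library totals (1.02), upper-quartile scaling (1.00) and the gene span trend removed (1.03), and was 0.87 with the control library sampled down.

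LOC706629, the identifier paired with GRIK5 by gene number, had 145 and 118 reads, or 8.63 and 11.9 CPM. GRIK5 encodes the high-affinity subunit GluK5. The log2 ratio of LOC706629 was 0.45 (interval 0.10 to 0.82), in the same direction as GRIK4. Whether this identifier covers the whole gene in the annotation the authors counted on is not given in the sources used here.

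**Figure D3:**
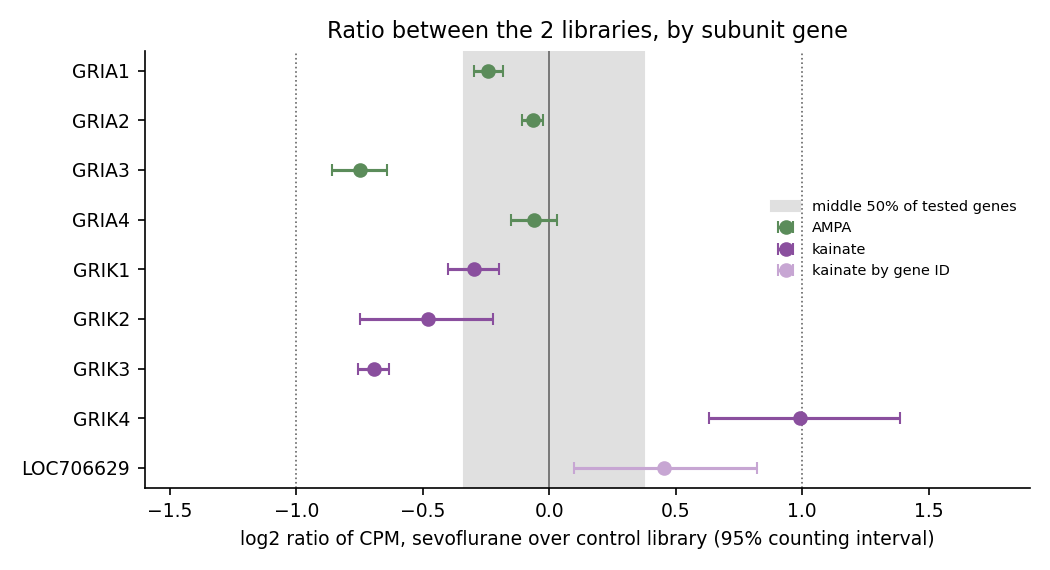
Log2 ratio of CPM (sevoflurane over control library) with 95% counting intervals for each AMPA gene, kainate gene and LOC706629; the grey band spans the middle 50% of tested genes and dotted lines mark 2-fold. GRIA3 (-0.75), GRIK2 (-0.48) and GRIK3 (-0.69) lie left of the band, and GRIK4 (0.99) and LOC706629 (0.45) right of it.

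The balance among the kainate genes moved accordingly. GRIK3 held 72.6% of the 10936 kainate reads in the control library (exact 95% interval 71.8% to 73.4%) and 66.0% of 4395 in the sevoflurane library (64.6% to 67.4%), a difference of -6.61 percentage points (-8.24 to -4.98). GRIK1 went from 22.7% to 27.1%, a difference of 4.43 points (2.91 to 5.97), although its own level was 81.3% of the control. GRIK4 went from 1.01% to 3.00%, a difference of 1.99 points (1.48 to 2.56). GRIK2 held 3.72% and 3.91%, and its difference of 0.19 points (-0.46 to 0.89) was not detectable.

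In pairs, 4 of the 6 kainate ratios differed between the libraries beyond counting error, and the 3 that involved GRIK4 differed most. These pairs also share genes, so they are not separate observations, and no share over pairs of other genes was computed. GRIK3 had 71.5 reads for each GRIK4 read in the control against 22.0 in the sevoflurane library, a difference of -1.70 on the log2 scale (-2.07 to -1.33). GRIK1 over GRIK4 went from 22.3 to 9.02, and GRIK2 over GRIK4 from 3.67 to 1.30. The remaining pair, GRIK1 over GRIK3, went from 0.312 to 0.410, a difference of 0.40 (0.28 to 0.51). With LOC706629 added to GRIK4, the high-affinity genes had 256 reads in the control against 250 in the sevoflurane library, against 10825 and 4263 on GRIK1 to GRIK3. Their ratio went from 0.0236 to 0.0586, a difference of 1.31 on the log2 scale (1.05 to 1.57).

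Pooled over genes, AMPA reads came to 1480 CPM in the control against 1310 CPM in the sevoflurane library, a log2 ratio of -0.18 (interval -0.21 to -0.15). Without GRIA3 the AMPA ratio was -0.12. Kainate reads came to 651 and 443 CPM, a log2 ratio of -0.56 (-0.61 to -0.51), of which GRIK3 made up the larger part. The control library held 2.27 AMPA reads for each kainate read and the sevoflurane library 2.96, so the ratio of the families differed by 0.38 on the log2 scale (0.32 to 0.44).

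**Figure D4:**
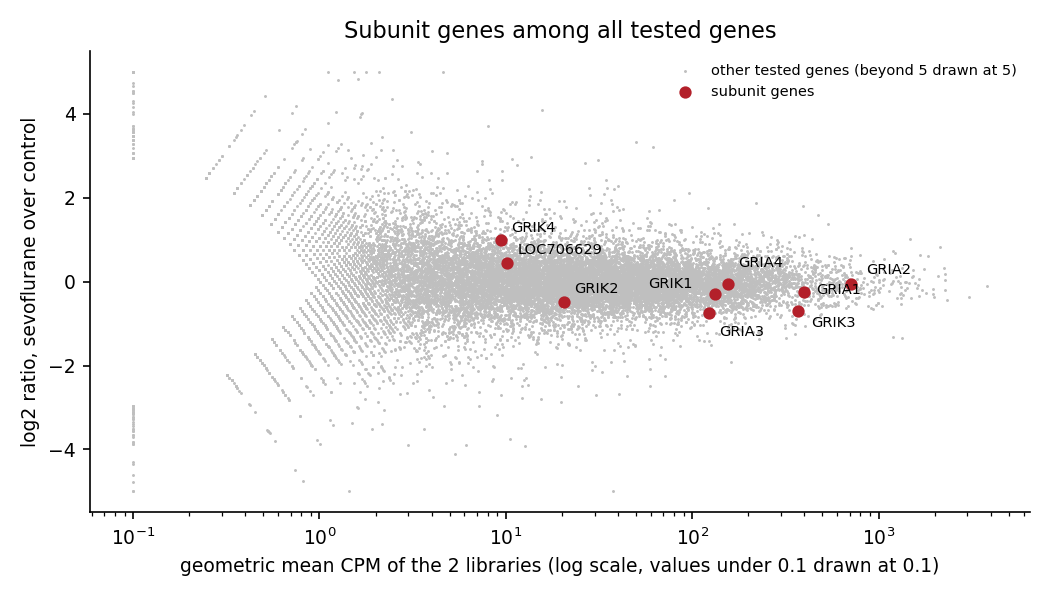
Log2 ratio (sevoflurane over control library) against the geometric mean CPM (log scale) of all 18050 tested genes, with the subunit genes in red. GRIK4 and LOC706629 lie among genes of lower coverage, where ratios scatter more widely, and GRIA1, GRIA2 and GRIK3 among the most covered.

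Markers of cell classes also differed between the libraries, and in bulk tissue fewer cells of a type and less RNA per cell cannot be told apart. The 8 neuron markers had a median log2 ratio of -0.27 and ranged from -0.56 to 0.83. Their summed level was 7786 CPM in the control against 6428 CPM in the sevoflurane library, and 6 of the 8 had intervals below equal expression. The 6 excitatory neuron markers had a median of 0.44 (4469 and 6039 CPM summed, 4 of 6 above equal expression) and the 7 inhibitory ones -0.23 (499 and 440 CPM summed, 4 of 7 below). The inhibitory list held an exception, picked out after its value was seen. PVALB, which marks the fast-spiking interneurons that are rich in GluA4, had 68 reads in the control against 221 in the sevoflurane library (log2 ratio 2.42, interval 2.06 to 2.87). The highest excitatory marker was SLC17A6 at 1.73, and 28.4% of all tested genes had intervals above equal expression and 28.1% below.

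Oligodendrocyte and astrocyte markers were mostly lower, where 28.1% of all tested genes had intervals below equal expression and 28.4% above. The 6 oligodendrocyte markers summed to 4056 and 1994 CPM with a median of -1.17 and all 6 below equal expression. The 7 astrocyte markers summed to 6554 and 4540 CPM with a median of -0.49 and 6 of 7 below, while SLC1A3 was higher (0.27, interval 0.24 to 0.31). The 3 oligodendrocyte precursor markers, of cells that also carry AMPA and kainate receptors, summed to 376 and 283 CPM, with a median of -0.40 and all 3 below. The 6 microglia markers summed to 214 CPM in each library (median 0.25) and the 4 endothelial ones to 131 and 128 CPM (median 0.06). No marker of these lists was at 0 reads in either library. The part of cell makeup in the subunit values was not tested.

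TARPs, the transmembrane partners that bring AMPA receptors to the synapse and slow their closing, are encoded by 6 CACNG genes. Of these, 2 had intervals above equal expression, 4 included it and 0 lay below, beside 28.4% of all tested genes above and 28.1% below. The median log2 ratio of the 6 was 0.18. CACNG7 was highest, with 1069 reads (63.6 CPM) in the control against 1022 reads (103 CPM) in the sevoflurane library (log2 ratio 0.69, interval 0.57 to 0.82). CACNG3 was lowest at -0.08 (2183 and 1221 reads, interval -0.18 to 0.02). Summed TARP reads for each AMPA read went from 0.209 to 0.274, a difference of 0.39 on the log2 scale (0.32 to 0.45). The TARP sum itself was 310 CPM in the control against 359 CPM in the sevoflurane library, and CACNG7 made up most of that difference.

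Of 10 other AMPA accessory genes, 6 had intervals above equal expression and 2 below, with a median of 0.24, where 28.4% and 28.1% of all tested genes did so. The highest was PRRT1, which encodes a membrane protein of native AMPA receptor complexes, with 997 reads (59.3 CPM) in the control against 1161 reads (117 CPM) in the sevoflurane library. Its log2 ratio was 0.98 (0.86 to 1.10), so its interval spanned the 2-fold limit, which it passed with library totals (1.00). The lowest was CNIH3, a cornichon that helps to export AMPA receptors, at -0.41 (472 and 210 reads, interval -0.65 to -0.17). Its paralog CNIH2, picked out here after its value was seen, was at 0.37 (0.24 to 0.50).

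The kainate accessory genes NETO1 and NETO2, whose products bind kainate receptors and slow their gating, were both lower. Both intervals lay below equal expression, as did those of 28.1% of all tested genes. NETO1 had 2240 reads (133 CPM) and 784 reads (78.9 CPM), a log2 ratio of -0.75 (-0.87 to -0.64). NETO2 had 3789 reads (225 CPM) and 1481 reads (149 CPM), a log2 ratio of -0.60 (-0.68 to -0.51). Set against the kainate subunit genes, there were 0.551 NETO reads for each kainate read in the control against 0.515 in the sevoflurane library, a difference of -0.10 on the log2 scale (-0.18 to -0.01).

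**Figure D5:**
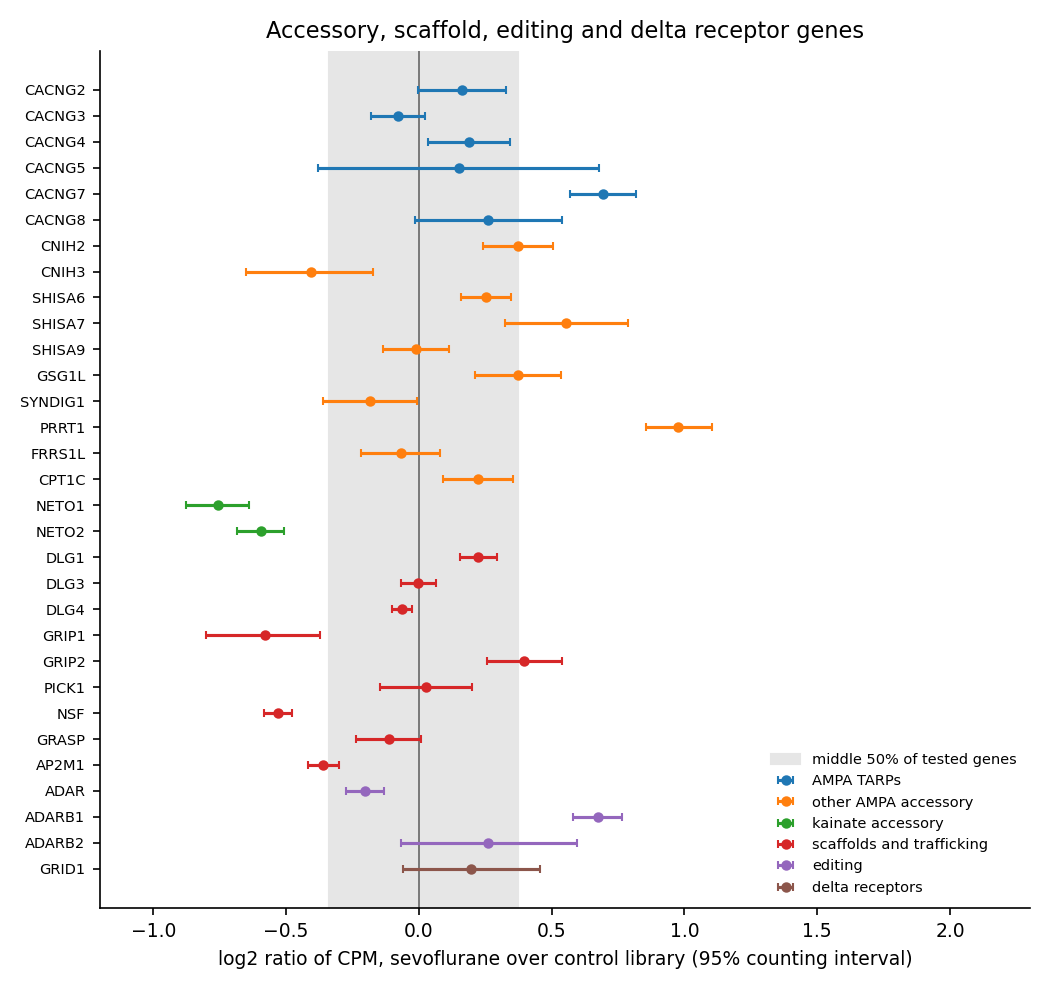
Log2 ratio of CPM (sevoflurane over control library) with 95% counting intervals for 31 accessory, scaffold, editing and delta receptor genes, coloured by role; the grey band spans the middle 50% of tested genes. NETO1, NETO2, GRIP1, NSF, CNIH3 and AP2M1 lie left of the band, and PRRT1, CACNG7 and ADARB1 furthest right.

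Of 9 scaffold and trafficking genes, 2 had intervals above equal expression and 4 below, with a median of -0.06. The share above was near the 28.4% of all tested genes, and the share below, from 4 genes, exceeded their 28.1%. GRIP1 and GRIP2 encode related scaffolds that bind the tails of GluA2 and GluA3, and they were the lowest and the highest of the list. GRIP1 had 634 and 250 reads (log2 ratio -0.58, interval -0.80 to -0.37), and GRIP2 had 932 and 726 reads (0.40, 0.26 to 0.54).

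Among the genes of adenosine-to-inosine editing enzymes, ADARB1 and ADAR differed in direction. ADARB1 encodes ADAR2, the enzyme that edits GRIA2 transcripts at the site that controls calcium entry and also edits GRIK1 and GRIK2. It had 1983 reads (118 CPM) in the control against 1870 reads (188 CPM) in the sevoflurane library, a log2 ratio of 0.67 (0.58 to 0.77). ADAR had 4735 and 2432 reads, a log2 ratio of -0.20 (-0.27 to -0.13). There were 0.161 ADARB1 reads for each GRIA2 read in the control against 0.269 in the sevoflurane library. Gene counts do not show whether a transcript was edited or which splice form it took, so neither was measured.

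GRID1 encodes a delta receptor, related to the AMPA and kainate subunits but not known to act as an ordinary glutamate-gated channel. It had 308 and 209 reads (log2 ratio 0.20, interval -0.06 to 0.46), a difference that was not detectable at this depth. Over all 31 accessory, scaffold, editing and delta receptor genes examined, 11 intervals lay above equal expression and 9 below, close to the 28.4% and 28.1% of all tested genes. None of the 31 passed the 2-fold limit, which 7.56% of tested genes passed upwards and 5.47% downwards, and their median log2 ratio was 0.15.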

How the data were processed

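The file deposited by the authors holds raw counts of reads for each gene, as whole numbers with no scaling, for 2 libraries. The submitters' processing notes name HISAT2 2.0.4, while the counting tool, genome build and annotation are not given in the sources used here, nor is the handling of reads that match several paralogous subunit genes, or of strand where genes overlap. No genome was used, and no coordinates or sequences are printed. TMM factors from edgeR 4.0.16 (R 4.3.3) were 0.991 (control) and 1.01 (sevoflurane), computed on genes with at least 1 CPM in either. Because 1 library per group leaves no residual degrees of freedom, edgeR's quasi-likelihood test was not run. Ratio and share intervals are exact Clopper-Pearson limits (scipy 1.17.1), share differences have Newcombe intervals (statsmodels 0.14.6), and ratios of ratios have 95% log odds-ratio intervals. Intervals are not adjusted for the number of genes. A count of 3 reads is 0.179 CPM in the control against 0.302 CPM in the sevoflurane library. The procedure was tested on simulated data that held counting error only, with changes planted in 200 genes. That simulation could not cover variation between animals. Identifiers were matched to the RefSeq table of MMU8v2.0 (25590 of 33618), used for names, gene span and the X chromosome. GRASP is the table's older symbol of TAMALIN. Subunit genes and lists were chosen with earlier results of these data known. All 8 listed subunit genes are named, and of each accessory, scaffold, editing and delta receptor list the highest and lowest gene. Cell class markers are given by list, and those named were picked out after their values were seen. An item of these lists was left out and has no value in the text.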

Additional observations from a re-analysis of the deposited data

How the results depend on the processing

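Results were recomputed with library totals, size factors of DESeq2 1.42.0, upper-quartile scaling, 0.5 prior reads, the control library sampled down, a filter of 5 CPM or of 1 read, fold thresholds of 1.5 and 4, and the gene span trend removed over 20 bins. TMM factors from autosomal genes, LOC706629 counted as GRIK5 and the AMPA sum without GRIA3 were chosen after seeing the data. The log2 ratios of the 8 subunit genes and LOC706629 kept their sign and stayed within their counting interval under each alternative run on them, with GRIA3 from -0.76 to -0.71, GRIK3 from -0.71 to -0.67 and GRIK4 from 0.87 to 1.03. Differences in share also kept their sign, with GRIK3 from -7.38 to -6.61 points. The pooled AMPA ratio was -0.12 without GRIA3. The numbers of tested genes past 2-fold moved by their construction, to 570 higher and 501 lower at 5 CPM, 2604 and 2141 at 1.5-fold, and 352 and 221 at 4-fold. Reads per kilobase of coding length were not run, since no sequence table was used here. No paired analysis was possible because there is a single library in either group, and for the same reason no library could be left out. Among the subunit genes, GRIK4, LOC706629 and GRIK2 had the fewest reads and the widest intervals.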

Other observations

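Pooled reads of the 7 NMDA receptor genes (GRIN1, GRIN2A, GRIN2B, GRIN2C, GRIN2D, GRIN3A and GRIN3B), which encode the slower calcium-permeable glutamate receptors, were set beside the AMPA and kainate genes after values had been seen. They came to 4663 CPM in the control against 4688 CPM in the sevoflurane library, a log2 ratio of 0.0077 (95% interval -0.0089 to 0.02). Only the sum is given here, and a level sum can hold opposite differences among its genes. There were 0.317 AMPA reads for each NMDA read in the control against 0.279 in the sevoflurane library, a difference of -0.18 on the log2 scale (-0.22 to -0.15). Kainate reads for each NMDA read went from 0.140 to 0.0944, a difference of -0.56 (-0.62 to -0.51). The kainate sum here again mostly follows GRIK3.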
